A study of Mus musculus with 2 samples.

Results

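The ubiquitin-specific proteases, or USPs, form a large family of enzymes that remove ubiquitin from other proteins, and 48 of the 52366 genes in the count table of mouse pseudoblastocysts belonged to it. Members were chosen by name: protein-coding genes whose GENCODE M21 symbol is Usp and a number, with Usp29 and Usp9y left out. The question was how the level of each member differed among embryos grown from single cells of different stages.

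The study separated single blastomeres from early embryos, cultured them until 96 h post insemination (hpi) and sequenced RNA from single pseudoblastocysts, which are embryos with a cavity that were not assessed for an inner cell mass (ICM). All embryos came from B6D2F1 oocytes fertilised in vitro with ICR sperm, and none had a zona pellucida, the glycoprotein coat of the egg. 1C embryos grew from whole zygotes freed of the zona, whereas 2CB, 4CB and 8CB embryos each grew from 1 blastomere of a 2-cell, 4-cell or 8-cell embryo. Each stage had 6 embryos, and no label ties an embryo to a litter or culture, so the p values measure the spread between these embryos. The labels name 2 library pools, 1 of 1C and 8CB embryos and 1 of 2CB and 4CB embryos, so pool and the comparison of 2CB and 4CB with 1C and 8CB cannot be told apart. Only 8CB against 1C and 4CB against 2CB lay within a pool.

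Ubiquitin is a small protein that is joined to other proteins by a cascade of E1, E2 and E3 enzymes and that marks them for the proteasome, for transport or for signalling. USPs cut it off again with a catalytic cysteine, which sits in a conserved Cys box, and a histidine further along the same domain. In early embryos, maternal proteins are cleared through ubiquitin while the embryonic genome takes over, and several USPs act on histones, on receptors and on proteins of the cell cycle.

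The Cys box is shown as coding DNA for the members that the results below turn on, since it holds the residue that cuts ubiquitin. Each line gives 39 bases of the coding strand, 5′ to 3′, from the GENCODE M21 transcript (GRCm38), with the codon of the catalytic cysteine in capitals.
Usp24: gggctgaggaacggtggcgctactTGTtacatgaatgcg
Usp9x: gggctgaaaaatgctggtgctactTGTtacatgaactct
Usp32: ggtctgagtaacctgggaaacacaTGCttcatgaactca
Usp36: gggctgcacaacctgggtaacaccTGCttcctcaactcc
Usp21: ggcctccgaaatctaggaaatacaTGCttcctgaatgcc
Usp38: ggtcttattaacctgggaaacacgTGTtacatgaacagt
Usp48: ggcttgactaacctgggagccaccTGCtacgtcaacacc
Usp7: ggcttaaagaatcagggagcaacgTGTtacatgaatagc
Usp5: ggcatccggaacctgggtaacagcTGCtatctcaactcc
Usp10: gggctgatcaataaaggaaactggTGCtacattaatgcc

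The box of Usp24 lies on the plus strand at chr4:106406433-106406471, in exon 43 of 68, and carries cysteine codon 1695 of a protein of 2617 codons. In Usp9x it lies on the plus strand at chrX:13145195-13145233, in exon 31 of 45. The box of Usp38 lies on the minus strand at chr8:80993225-80993263, in exon 6 of 10. The search asked for an asparagine 5 residues before the cysteine, a glycine 3 before it and an asparagine 3 after it, and these letters were found in 39 of the 48 members. The most abundant member, Usp34, was among the 9 without this exact spelling, which says nothing about its activity. Coding sequences of the family ran from 366 codons in Usp46 to 3582 in Usp34.

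Libraries were made with CEL-Seq2, which counts the 3′ ends of transcripts by unique molecular identifiers (UMIs), so 1 transcript gives 1 tag whatever its length. Levels are given as CPM, the UMIs of a gene divided by all UMIs of its embryo and scaled to 1000000. Totals ran from 70941 to 1507471 UMIs, the lowest in 8CB embryo 6. The pool of 2CB and 4CB held 6658255 UMIs and that of 1C and 8CB held 2952530. The labelled embryo type was checked against lineage markers. Gata3, Cdx2 and Krt18, which mark the trophectoderm, were detected, as were Nanog, Esrrb and Sox2 of the ICM, with 2957, 1955 and 1271 UMIs over all 24 embryos, and Pou5f1, a pluripotency gene of the ICM, had 33 UMIs. The summed level of 9 trophectoderm genes was 741 to 1089 CPM in 1C and 810 to 1203 CPM in 8CB, against 2502 to 5268 CPM in 2CB and 2563 to 5280 CPM in 4CB, with 6 genes higher and 2 lower. The 2 lower were Hand1 and Tfap2c, with log2 fold changes of -4.64 and -0.74. Krt18 and Gata3 weighed heavily in the sum, with means of 1448 and 1433 CPM in 2CB. Of 3 tested ICM genes 1 was higher and 2 were lower, and of 4 tested primitive endoderm genes 3 were higher and 1 was lower. The cumulus cell genes Has2, Ptx3 and Vcan were at 0 UMIs in every embryo, and the fourth, Tnfaip6, had 11 UMIs. The called lineage genes differed along the same division of embryos as the USPs below that were called between the pools, and their part in it was not tested. In whole embryos, fewer cells of a type and less RNA per cell cannot be told apart.

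Most of the family was expressed. At least 1 UMI was found for 46 of the 48 members, and 21 members were detected in all 24 embryos. Usp18, the protease for the ubiquitin-like protein ISG15, and Usp51, an X-linked relative of Usp22, had 0 UMIs in all embryos, which allows a level of up to 0.451 CPM over the 2CB and 4CB embryos and up to 1.02 CPM over the 1C and 8CB embryos (3 counts, counting error only). Together the members took 3703 ± 441 CPM for 1C (mean ± SD of 6 embryos), 3241 ± 427 for 2CB, 3867 ± 268 for 4CB and 3128 ± 433 for 8CB. The number of members detected in an embryo ran from 31 to 44, with the lowest in the embryo of fewest UMIs.

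**Figure D1:**
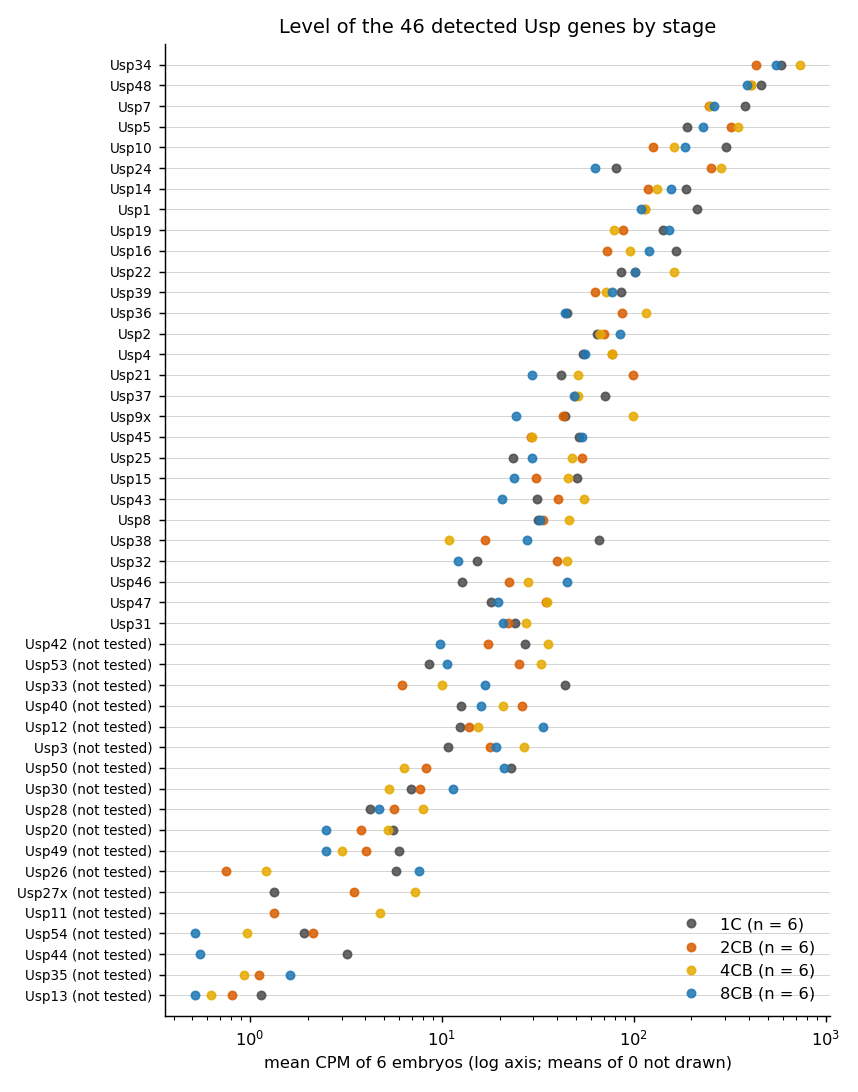
Mean CPM of the 46 detected Usp genes on a log axis, with 1 point per stage (6 embryos each) and genes ordered by their mean over all embryos. The order runs from Usp34 at a mean of 576 CPM to Usp13 at 0.775 CPM, and the 18 detected genes labelled as not tested lie at the low end.

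The 5 most abundant members were Usp34, Usp48, Usp7, Usp5 and Usp10, which held 48.3% of the 32459 UMIs of the family. Usp34, a large protease linked to axin and Wnt signalling, had a lowest, median and highest level of 433, 615 and 715 CPM for 1C, 198, 443 and 657 for 2CB, 450, 659 and 1186 for 4CB and 437, 504 and 796 for 8CB. Usp48, a nuclear protease that acts on histone H2A, reached 289, 368 and 769 CPM for 1C, 328, 387 and 526 for 2CB, 246, 447 and 534 for 4CB and 277, 366 and 520 for 8CB. The ranges of the stages overlapped in both genes. Neither was called in edgeR between the pools (adjusted p of 0.89 and 0.79) or within a pool. Ahsa2 shares up to 1977 exon bases with Usp34 on the opposite strand and had 91 UMIs, against 4783 of Usp34. Per kilobase of annotated exon, which would matter if tags were spread over the transcript, 4 of these 5 stayed among the first 5 and Usp5 came first.

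For the tests, 28 members passed the filter on low counts (edgeR filterByExpr by stage) and 20 did not. Among the 4 stages, 15 of the 28 differed at a Benjamini-Hochberg adjusted p below 0.1 in edgeR's quasi-likelihood test, or 53.6%, beside 47.1% of all 5940 genes tested. In the 2CB and 4CB embryos against the 1C and 8CB embryos, 16 of 28 members were called, or 57.1%, with 9 higher and 7 lower. The share over all genes was 55.3%, with 31.3% higher and 24% lower, so the share of the family was close to that of all tested genes. The median log2 fold change was 0.09 for the members and 0.12 for all genes, and the median of its size was 0.57 and 0.67. Under other settings the median over all genes ran from -0.01, thinned to equal depth, to 0.34, without a filter, and it was 0.17 in DESeq2. In 6 of the 16 called members the log2 value changed by 1 or more, upward in Usp24, Usp32, Usp36, Usp9x and Usp21 and downward in Usp38.

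**Figure D2:**
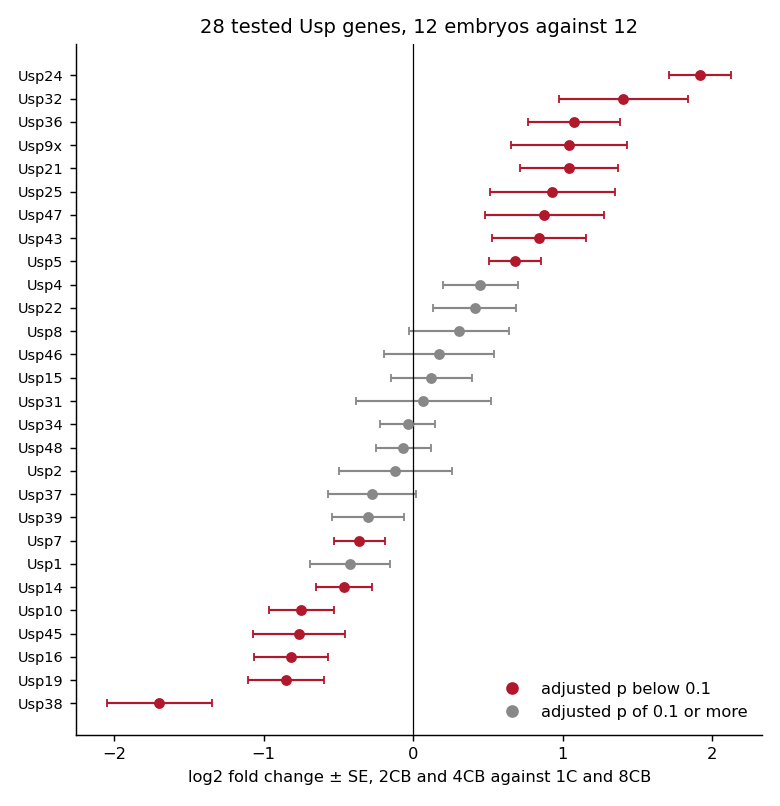
Log2 fold change with its SE for the 28 tested Usp genes, 12 2CB and 4CB embryos against 12 1C and 8CB embryos, with red points for an adjusted p below 0.1. Usp24 at 1.92 and Usp38 at -1.70 lie at the ends, and 12 gray points lie between -0.42 and 0.45.

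Usp24 showed the clearest separation. It encodes one of the largest proteases of the family and has been linked to p53 and DNA damage. Its lowest, median and highest level was 41.2, 81.2 and 120 CPM in 1C and 29.5, 56.5 and 113 CPM in 8CB. In 2CB these values were 201, 227 and 364 CPM, and in 4CB 181, 283 and 427 CPM. All 12 embryos of 2CB and 4CB lay above the highest 1C or 8CB embryo. No other tested member had embryos without overlap, where 5.74% of all genes tested did. The log2 fold change was 1.92 ± 0.21 (SE), with an adjusted p of 1.54e-08 in edgeR, and the call stood in all 24 fits that each left out 1 embryo. Over those fits the log2 fold change ran from 1.77 to 1.95.

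Usp38 fell. It has been linked to interferon signalling. Its level was 20.4, 67.6 and 110 CPM in 1C and 8.53, 26.7 and 45.9 CPM in 8CB, against 9.01, 13.5 and 33.9 CPM in 2CB and 3.62, 8.60 and 22.6 CPM in 4CB (lowest, median and highest). All 12 embryos of 2CB and 4CB lay below the median of the 1C and 8CB embryos, although 3 alone lay below the lowest of them. Here and below, the share of all genes with such counts against a median or an extreme was not computed. The log2 fold change of Usp38 was -1.70 ± 0.35 with an adjusted p of 2.0e-04 in edgeR, and it was -2.51 when every embryo was thinned to the same number of UMIs and the tested genes were kept. Usp35, its closest relative in the family with 49.7% identity over 934 aligned residues, had 12 UMIs in all and was not tested. An antisense gene, Gm9725, shares 1174 exon bases with Usp38 and had 1 UMI.

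**Figure D3:**
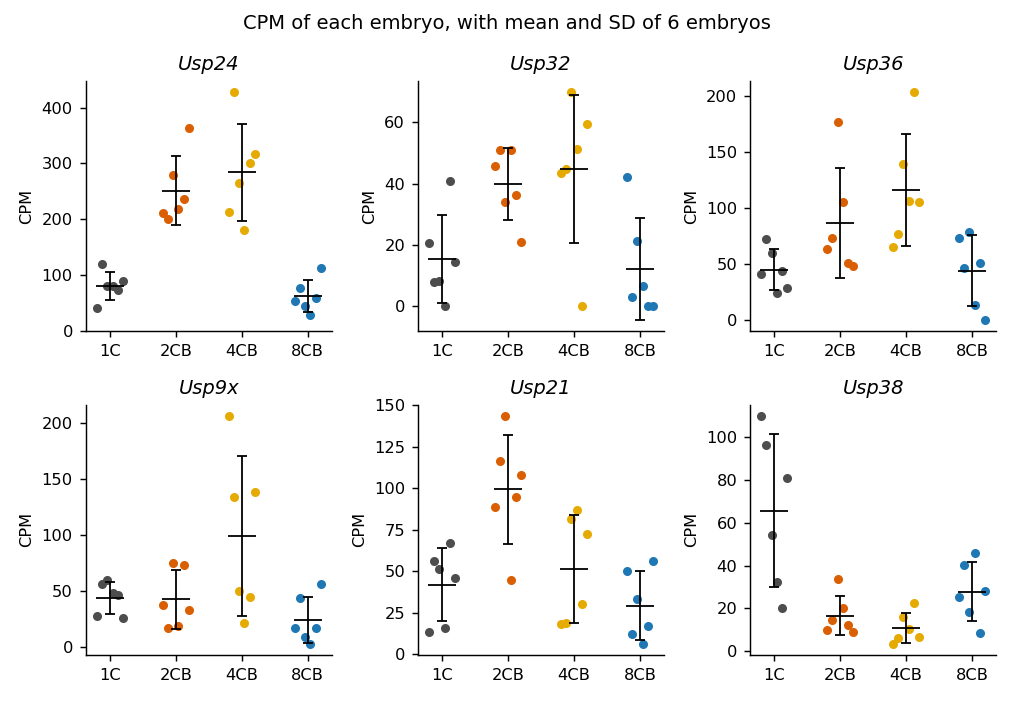
CPM of each embryo for the 6 called Usp genes whose log2 value changed by 1 or more, by stage, with bars for the mean and SD of 6 embryos. Usp24 is the only panel in which every 2CB and 4CB point lies above every 1C and 8CB point, and the high mean of Usp9x in 4CB goes with 3 embryos at 134 to 207 CPM.

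Of the members that act on histones, chromatin and the nucleolus, 6 were tested, of which 2 rose and 2 fell. This count and those by role that follow stand beside 31.3% of all tested genes higher and 24% lower. Usp36, a nucleolar protease needed for ribosome production, had a lowest, median and highest level of 24.3, 42.5 and 72.1 CPM in 1C and 0, 48.9 and 79.0 CPM in 8CB, against 48.1, 68.6 and 177 CPM in 2CB and 65.2, 106 and 203 CPM in 4CB. Every 2CB and 4CB embryo exceeded the 1C and 8CB median, and 6 of the 12 exceeded the highest of them. Its log2 fold change was 1.08 ± 0.31 with an adjusted p of 0.0049 in edgeR. Usp42, its nearest relative at 45.5% identity, averaged 22.5 CPM and did not pass the filter.

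Usp21, which removes ubiquitin from histone H2A and is known to stabilise Nanog, was highest in 2CB. The lowest, median and highest level was 44.9, 101 and 143 CPM there, against 13.7, 48.9 and 67.1 CPM in 1C, 18.1, 51.3 and 86.7 CPM in 4CB and 6.55, 25.2 and 56.4 CPM in 8CB. The 4CB embryos overlapped with those of 1C over most of their range. Between the pools the log2 fold change was 1.04 ± 0.33 with an adjusted p of 0.0096. The call held for 2CB against 1C, with a log2 fold change of 1.17 and an adjusted p of 0.041, and not for 4CB against 8CB, with 0.91 and 0.15, but the difference between those comparisons was itself not called in edgeR (adjusted p of 0.94).

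Usp16 and Usp45 are related proteases, with 41.9% identity, and both fell. Usp16, which deubiquitinates histone H2A before mitosis, averaged 165 ± 48.8 CPM for 1C, 72.8 ± 23.3 for 2CB, 95.4 ± 52.0 for 4CB and 121 ± 49.8 for 8CB (SD, n = 6 embryos each). Usp45, which acts in DNA repair and is counted here with its relative, averaged 52.0 ± 31.0, 29.2 ± 6.74, 29.4 ± 18.8 and 54.1 ± 22.4 CPM in the same order. The log2 fold changes were -0.82 ± 0.25 and -0.76 ± 0.31, with adjusted p of 0.0070 and 0.041 in edgeR. For Usp45 the call was lost without a filter (adjusted p of 0.12), and in the thinned fit with the genes kept the log2 fold change was -1.46 (adjusted p of 0.011). Usp16 shares 192 exon bases on the opposite strand with Cct8, which had 6015 UMIs, and the strand setting of the counting is not given in the sources used here, so reads of both genes in that stretch cannot be told apart.

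Usp22, the protease of the SAGA coactivator complex, was not called. Its level averaged 86.4 ± 32.9 CPM for 1C, 102 ± 64.9 for 2CB, 163 ± 74.6 for 4CB and 101 ± 58.7 for 8CB, with a log2 fold change of 0.41 and an adjusted p of 0.23. It was called in both thinned fits, with 0.65 and an adjusted p of 0.049 or 0.62 and 0.089, and without 8CB embryo 1 (adjusted p of 0.096). Usp27x, its X-linked relative at 84.2% identity over 411 residues, averaged 3.02 CPM.

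Among members of DNA repair, replication and the cell cycle, 6 were tested, of which 1 rose and 2 fell. Usp10, which binds the stress granule proteins G3bp1 and G3bp2 and can stabilise p53, reached 194, 284 and 483 CPM for 1C, 60.4, 97.4 and 216 for 2CB, 119, 161 and 237 for 4CB and 112, 174 and 256 for 8CB (lowest, median and highest). The 1C embryos lay highest, and all 12 embryos of 2CB and 4CB lay below the median of the other pool. The log2 fold change was -0.75 ± 0.22 with an adjusted p of 0.0057 in edgeR, and the call was lost when all embryos were thinned to the same number of UMIs (-0.39, adjusted p of 0.20, within 0.0042 to 0.20 over its alternatives).

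Usp7, which acts on p53 and its ligase Mdm2, gave 254, 350 and 652 CPM for 1C, 192, 258 and 283 for 2CB, 211, 247 and 307 for 4CB and 173, 258 and 392 for 8CB. The median was highest in 1C, and the medians of the other stages lay close together. Between the pools this was a log2 fold change of -0.36 ± 0.17, with an adjusted p of 0.079 in edgeR. Without 1C embryo 1, the highest, it was -0.28 with an adjusted p of 0.14, and without 8CB embryo 5 the adjusted p was 0.11. DESeq2 did not call it (adjusted p of 0.11, within 0.054 to 0.31 over its alternatives). Usp47, a relative of Usp7 linked to base excision repair, moved the other way, from 18.1 ± 16.7 CPM in 1C and 19.6 ± 14.6 in 8CB to 34.9 ± 6.28 in 2CB and 35.5 ± 22.1 in 4CB. Its log2 fold change was 0.88 ± 0.40 with an adjusted p of 0.069, and its call stood in 12 of the 24 fits without 1 embryo. It was lost without 1C embryo 2, 5 or 6, 2CB embryo 1, 2 or 5, 4CB embryo 1, 3, 4 or 6 or 8CB embryo 4 or 6, with adjusted p up to 0.15. Without a filter and in the thinned fit with the genes kept it was lost too, with adjusted p up to 0.21.

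Usp1, which with its partner Wdr48 acts on Fancd2 and Pcna, averaged 213 ± 94.9 CPM in 1C and 109 to 114 CPM at the other stages. Usp37 and Usp2 completed the tested members of this group, with log2 fold changes of -0.27 and -0.12. Usp37, with 465 UMIs, shares 134 exon bases on the opposite strand with Cnot9, which had 3883 UMIs, so its level is uncertain in the same way as that of Usp16. None of the 3 was called between the pools with all embryos. Usp1, with an adjusted p of 0.20, was called without 1C embryo 4, 8CB embryo 3 or 8CB embryo 5, with adjusted p of 0.060 to 0.097. In edgeR Usp1 was lower in 2CB than in 1C, with a log2 fold change of -0.92 and an adjusted p of 0.054.

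Usp5 and Usp14 handle ubiquitin chains. Usp5, which takes apart chains that are no longer attached to a protein, reached 150, 177 and 268 CPM in 1C and 171, 206 and 381 in 8CB, against 235, 311 and 426 in 2CB and 235, 341 and 467 in 4CB (lowest, median and highest). All 12 embryos of 2CB and 4CB exceeded the 1C and 8CB median, and its log2 fold change was 0.68 ± 0.17 with an adjusted p of 0.0019 in edgeR. Its relative Usp13, with 62.8% identity over 828 residues, had only 11 UMIs against 2631 of Usp5. Usp14, which sits on the proteasome, averaged 187 ± 35.2 CPM for 1C, 118 ± 29.9 for 2CB, 132 ± 51.8 for 4CB and 157 ± 36.3 for 8CB, a log2 fold change of -0.47 ± 0.19 with an adjusted p of 0.041. It shares up to 2169 exon bases with Thoc1 on the opposite strand, a gene with 600 UMIs, so part of its count may belong to that gene. Its call was lost in both thinned fits and without a filter, with adjusted p of 0.029 to 0.36 over its alternatives.

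**Figure D4:**
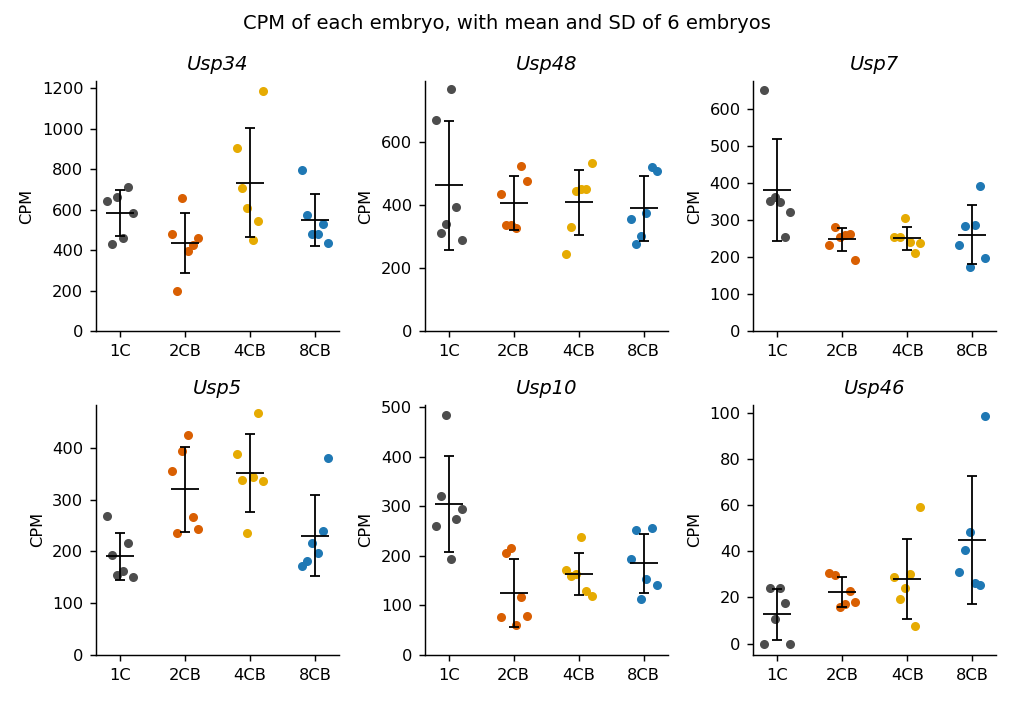
CPM of each embryo for the 5 most abundant Usp genes and for Usp46, by stage, with bars for the mean and SD of 6 embryos. Usp5 lies higher in 2CB and 4CB and Usp10 lower, whereas Usp34 and Usp48 overlap at every stage and Usp46 is lowest in 1C.

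Of 3 tested members of endosomes and membrane traffic, 1 was called. Usp32, which is found on the Golgi apparatus and endosomes, gave 0, 11.3 and 40.8 CPM in 1C and 0, 4.83 and 42.0 CPM in 8CB, against 21, 41.0 and 51.1 in 2CB and 0, 48.0 and 69.8 in 4CB (lowest, median and highest). Of the 2CB and 4CB embryos, 8 of 12 lay above the highest of the other pool, and 1 embryo, from 4CB, had 0 UMIs. Its log2 fold change was 1.41 ± 0.43 with an adjusted p of 0.0082. Usp8, which frees receptors from ubiquitin on endosomes, was not called (log2 fold change of 0.31 ± 0.33, adjusted p of 0.47).

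The only tested member of mitochondria and the endoplasmic reticulum was Usp19, part of which is anchored in the reticulum membrane. It averaged 142 ± 48.2 CPM for 1C, 88.1 ± 22.3 for 2CB, 79.4 ± 33.9 for 4CB and 152 ± 78.5 for 8CB, and all 12 embryos of 2CB and 4CB lay below the median of the others. This amounted to a log2 fold change of -0.85 ± 0.25, with an adjusted p of 0.0066.

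Of the members linked to signal pathways, 6 were tested, with Usp9x and Usp25 higher and Usp38 lower. Usp9x, an X-linked protease with roles in endocytosis and in TGF-beta and Hippo signalling, gave 26.0, 47.6 and 59.7 CPM for 1C, 17.2, 35.6 and 75.6 for 2CB, 21.2, 91.9 and 207 for 4CB and 3.28, 16.9 and 56.4 for 8CB (lowest, median and highest). The ranges of 1C and 2CB overlapped, while 3 of the 4CB embryos lay at 134 to 207 CPM. The log2 fold change between the pools was 1.04 ± 0.39 with an adjusted p of 0.028, and without 4CB embryo 1 the adjusted p was 0.102. In the thinned fit with the genes kept it was 0.85 with an adjusted p of 0.20. For 4CB against 8CB it was 2.14 ± 0.58 (adjusted p of 0.0054) and for 2CB against 1C -0.05, but the difference between these was not called in edgeR (adjusted p of 0.39).

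Because Usp9x is X-linked, its values were set beside those of Xist and of 4 Y-linked genes. Y-linked UMIs outnumbered those of Xist in 4 of 6 1C, 3 of 6 2CB, 1 of 6 4CB and 1 of 6 8CB embryos. In 2CB these 3 embryos had 17.2 to 33.0 CPM of Usp9x and the other 3 had 38.1 to 75.6 CPM, but in 1C the ranges were 27.4 to 56.1 and 26.0 to 59.7 CPM. In 4CB the 1 embryo with more Y-linked UMIs had 138 CPM of Usp9x and the other 5 had 21.2 to 207 CPM. In 8CB these values were 56.4 CPM and 3.28 to 43.6 CPM, but that 8CB embryo had only 3 Y-linked UMIs against 1 of Xist. The part of sex in the level of Usp9x was not tested. Usp25 averaged 23.4 ± 20.4 CPM for 1C, 53.8 ± 22.7 for 2CB, 47.9 ± 32.0 for 4CB and 29.4 ± 21.4 for 8CB. Its log2 fold change was 0.93 ± 0.42 with an adjusted p of 0.067, and its call stood in 15 of the 24 fits without 1 embryo. It was lost without 1C embryo 4 or 6, 2CB embryo 5 or 6, 4CB embryo 2 or 3 or 8CB embryo 2, 3 or 4, with adjusted p up to 0.16.

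Usp4 and Usp15, close relatives with 60.4% identity that both act in TGF-beta signalling, were not called between the pools, with log2 fold changes of 0.45 ± 0.25 and 0.12 ± 0.27. Usp4, with an adjusted p of 0.14, was called by DESeq2 (0.50, adjusted p of 0.064), by edgeR with the size factors of DESeq2 (0.50, 0.099) and without 4CB embryo 2 (0.48, 0.068). Usp39, a splicing factor of the family that is known to lack protease activity, gave -0.30 ± 0.24. Usp43 averaged 31.4 ± 17.6 CPM for 1C, 40.4 ± 16.4 for 2CB, 55.3 ± 27.3 for 4CB and 20.7 ± 11.6 for 8CB, a log2 fold change of 0.84 ± 0.31 with an adjusted p of 0.028, and without 4CB embryo 2 the adjusted p was 0.12. The call was also lost without a filter (0.78, adjusted p of 0.14) and in the thinned fit with the genes kept (0.22, adjusted p of 0.75). The opposite-strand transcript 9130017K11Rik, with 24 UMIs, shares 609 exon bases with Usp43. Its relative Usp31, with 52.4% identity, gave 0.07 ± 0.45.

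Pairs of stages from different pools gave fewer calls. For 2CB against 1C, 10 of 28 members were called, 4 higher and 6 lower, beside 41.5% of all genes, with 24% higher and 17.5% lower. DESeq2 called 13, 7 higher and 6 lower, beside 43.7% of all genes, and a fit of these embryos alone called 13 of 26, 6 higher and 7 lower, beside 43.6%. For 4CB against 8CB, 9 of 28 were called, 7 higher and 2 lower, beside 40.2% of all genes, with 23.2% higher and 17% lower. For 4CB against 1C and 2CB against 8CB, which reuse these embryos, 11 of 28 (5 higher, 6 lower) and 6 of 28 (4 higher, 2 lower) were called by edgeR, beside 40.9% and 38.4% of all genes, and DESeq2 called 14 and 7, beside 43.9% and 41%. Leaving out 1 embryo gave 6 to 14 and 3 to 8 called members. The 6 came without 1C embryo 3, beside 2289 of 6172 genes called. The 3 came without 2CB embryo 1, beside 2149 of 6162 genes, or without 8CB embryo 1. For 2CB against 8CB other fits also called 3, all higher in 2CB. They were those with a replicate block (2138 of 5940 genes called), without a filter (3134 of 23171) and thinned with the genes kept (1558 of 5940). Thinned to equal depth, 2 of 10 members were called (892 of 2001 genes). At an adjusted p below 0.05 it was 2 of 28 (1800 of 5940 genes). The comparisons of 2CB with 1C and of 4CB with 8CB have no embryo in common. In both of them Usp24, Usp36, Usp5 and Usp38 were called in the same direction, which makes 4 of 28 members, where 27.2% of all genes were. The sign was the same in 19 of 28 members and in 77.2% of all genes.

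**Figure D5:**
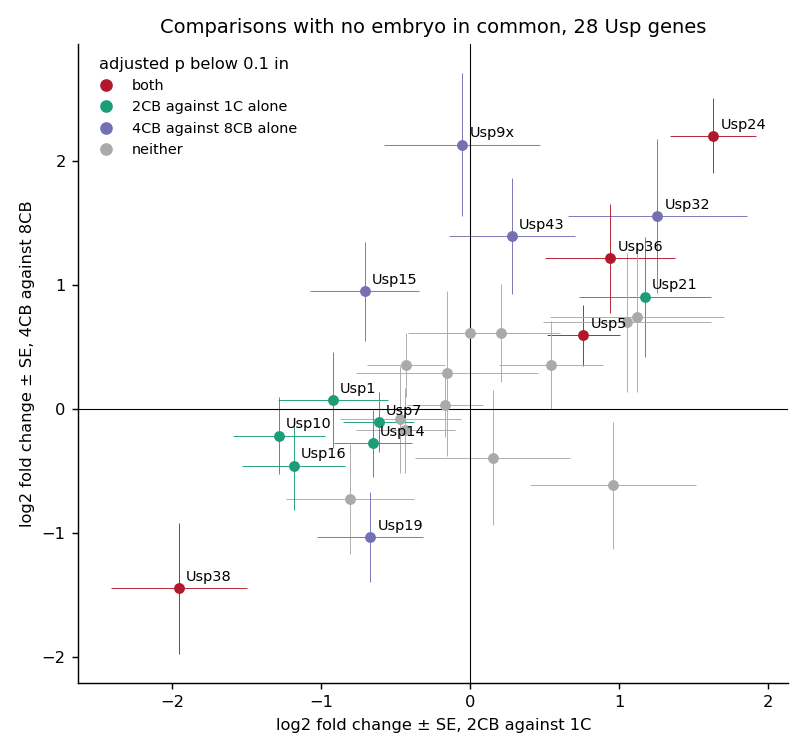
Log2 fold change with SE of the 28 tested Usp genes for 2CB against 1C (horizontal) and for 4CB against 8CB (vertical), which share no embryos, coloured by which comparison called them. Usp24, Usp36, Usp5 and Usp38 are red, and Usp9x stands at -0.05 and 2.14.

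Usp15 was called in 1 of the 2 comparisons and had the opposite sign in the other, as Usp9x and Usp1 did. It was higher in 4CB than in 8CB, with a log2 fold change of 0.95 and an adjusted p of 0.067, and for 2CB against 1C it was -0.71 with an adjusted p of 0.14. The test of the difference gave an adjusted p of 0.34 in edgeR, so the comparisons were not shown to differ.

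Within a pool, no member was called by edgeR. For 8CB against 1C, 0 of 28 passed and 0% of all genes were called. In simulated counts for this comparison, 9% of 200 genes changed by a log2 value of 1 were recovered, and 82.5% at 2. A member without a call may therefore still differ. Between the pools these shares were 53% and 87.5%, and 4CB against 2CB was not simulated. At an unadjusted p below 0.05 stood 6 members in 8CB against 1C, a cut whose share over all genes was not counted. DESeq2 called 1 of them, Usp46, beside 0.724% of all genes. Usp46, which with Wdr48 acts on glutamate receptors in neurons, had 0, 14.2 and 24.3 CPM in 1C and 25.6, 35.7 and 98.7 CPM in 8CB (lowest, median and highest). Each 8CB embryo lay above every 1C embryo, by a narrow margin at the edges. The share of all genes without overlap in this comparison was not counted. In 2CB its level was 15.6, 20.5 and 30.5 CPM and in 4CB 7.53, 26.5 and 59.3 CPM. The log2 fold change in 8CB against 1C was 1.85 ± 0.58, with an adjusted p of 0.25 in edgeR and 0.079 in DESeq2. Without 8CB embryo 6, the highest and the least deeply sequenced, it was 1.62 with an adjusted p of 0.30. Its relative Usp12, with 88.3% identity over 366 residues, was not tested and averaged 12.5 ± 11.8 CPM in 1C and 33.5 ± 22.5 in 8CB. The other 5 members at an unadjusted p below 0.05 were Usp15, Usp1, Usp38, Usp10 and Usp7, all lower in 8CB, with log2 fold changes of -1.09, -1.01, -1.14, -0.71 and -0.53 and adjusted p of 0.36 to 0.50.

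For 4CB against 2CB, 0 of 28 members were called by edgeR, beside 0.0337% of all genes, and 0 by DESeq2, beside 0.168%. In each, 3 members had an unadjusted p below 0.05, a cut whose share over all genes was not counted. These were Usp34, Usp9x and Usp21, with log2 fold changes of 0.72 ± 0.26, 1.17 ± 0.50 and -0.90 ± 0.43 and adjusted p of 1.0 each in edgeR.

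The 20 members that did not pass the filter had 0 to 231 UMIs each. Besides Usp18 and Usp51 they were Usp3, Usp11, Usp12, Usp13, Usp20, Usp26, Usp27x, Usp28, Usp30, Usp33, Usp35, Usp40, Usp42, Usp44, Usp49, Usp50, Usp53 and Usp54. When no filter was applied, 46 members were tested and 18 called, beside 23.8% of 23171 genes, and 7 of the 18 were members that had not passed. Those 23171 are all genes with at least 1 UMI, which are not matched to the members in level. Under the filter the shares were 57.1% of members and 55.3% of all genes. Usp53 had 183 UMIs in 2CB and 4CB and 28 in 1C and 8CB, a ratio of CPM of 2.90 (exact 95% interval 1.94 to 4.48, counting error only), and an adjusted p of 0.0084. Usp33, which acts on receptors at the membrane, had 37 and 72 UMIs, a ratio of 0.228 (0.149 to 0.343) with an adjusted p of 0.0039. Its median was 35.0 CPM in 1C and 13.2 CPM in 8CB, against 6.10 CPM in 2CB and 7.06 CPM in 4CB, and 53 of the 72 UMIs came from 1C. Annotated genes on the opposite strand overlap its exons. Usp50 had 51 and 70 UMIs, a ratio of 0.323 (0.221 to 0.470) with an adjusted p of 0.0052.

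The remaining 4 of the 7 had few UMIs. Usp26, an X-linked member known from testis, had 5 UMIs in 2CB and 4CB and 15 in 1C and 8CB, with an adjusted p of 0.033. Usp27x had 23 and 1, with a ratio of CPM of 10.2 and an interval of 1.66 to 420, and an adjusted p of 0.019. Usp11, an X-linked relative of Usp4, had 15 UMIs in 5 of the 12 embryos of 2CB and 4CB and 0 in 1C and 8CB. Its level was 2.22 times that of 3 counts over 1C and 8CB. The counting error of the 15 UMIs is left out, so 2.22 is not a lower bound. Usp44, which acts at the spindle checkpoint, had 0 UMIs in 2CB and 4CB and 6 in 1C and 8CB. Those 6 gave 4.51 times the level of 3 counts over 2CB and 4CB, which is no lower bound either. The call of Usp44 was lost without 8CB embryo 4. The other 6 calls stood in all 24 fits without 1 embryo.

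Genes that work with the family were read from lists chosen for their function. Of 23 tested genes in a list of deubiquitinases outside the family and their relatives, which also holds Cops5, Uspl1 and Pan2, proteins not known for removing ubiquitin, 4 rose and 3 fell between the pools, with a median log2 fold change of 0.05, where 31.3% of all tested genes were higher and 24% lower with a median of 0.12. The widest change was that of Uchl1, a deubiquitinase abundant in oocytes and neurons, which averaged 147 ± 49.2 CPM for 1C, 2.84 ± 3.29 for 2CB, 29.3 ± 38.2 for 4CB and 263 ± 324 for 8CB, a log2 fold change of -4.47 ± 0.57. Otud6b and Mysm1, a histone H2A deubiquitinase, fell by 1.71 and 1.25 on the log2 scale. Josd2, Otud7b and Brcc3 rose, with log2 fold changes of 1.5, 1.37 and 1.15.

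Against the same shares of all genes, 1 of 13 tested binding partners of USPs rose and 6 fell, with a median log2 fold change of -0.30. Stam2, which brings Usp8 to endosomes, averaged 356 ± 134 CPM for 1C, 68.6 ± 11.4 for 2CB, 68.4 ± 21.6 for 4CB and 249 ± 87.5 for 8CB, a log2 fold change of -2.12 ± 0.20. Its relative Stam gave 0.83 ± 0.37. G3bp2, a partner of Usp10, gave -1.03 ± 0.21, and Wdr48, the shared activator of Usp1, Usp12 and Usp46, gave -0.94 ± 0.36. Among 25 tested genes of ubiquitin, E1 and E2 enzymes, 6 rose and 8 fell, with a median of 0.04. Ube2o, Ube2s and Ube2k fell, with log2 fold changes of -1.57, -0.96 and -0.82, and Ube2r2, Ube2l3 and Ube2h rose, with 1.33, 0.96 and 0.95.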

How the data were processed

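RNA of 24 single pseudoblastocysts was counted as UMIs. The deposited table holds raw UMI counts per gene and embryo. According to the study's methods and the submitters' processing notes, the authors aligned CEL-Seq2 reads to GRCm38 with HISAT2 2.2.6 and counted them with HTSeq 0.6.1. Annotation release and strand setting are not given in the sources used here. The 24 columns named Morula were not used. The members, roles and gene lists were chosen with earlier results of these data known.

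Counts were normalised with TMM (factors 0.928 to 1.07), filtered with filterByExpr by stage and fitted with edgeR 4.0.16 in R 4.3.3 (quasi-likelihood, 1 mean per stage, 24 embryos, 5940 genes). A gene was called at a Benjamini-Hochberg adjusted p below 0.1. CPM divides by total UMIs. SEs were derived from the F statistic. DESeq2 1.42.0, other filters, thinning to 70941 UMIs and leaving out each embryo were alternatives. The script was tested on simulated data. Identity came from local alignment of translated coding sequences with Biopython 1.88. Genes named individually were called members whose log2 value changed by 1 or more, the 5 highest by mean CPM, relatives, and up to 3 called genes each way per list with a mean of at least 10 CPM. Usp46, Usp15 and the values of members below these limits were named after their values were seen. The largest count, 53029, exceeds the 4096 tags that 6 bases allow, whereas the largest count of a member was 550. Spread between embryos, as the common biological coefficient of variation, was 0.442.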

Additional observations from a re-analysis of the deposited data

Results flagged for a closer look

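Within each stage of 6 embryos, 1 embryo stood far from the other 5 in 5 of 112 member and stage combinations, by Dixon's test on the CPM of tested members, and chance alone marks about 1 in 20. Usp5 had 381 CPM in 8CB embryo 6, against 171 to 239 CPM in the other 5. The same embryo had 98.7 CPM of Usp46, against 25.6 to 48.6 CPM, and it had the fewest UMIs of all. Usp7 had 652 CPM in 1C embryo 1, against 254 to 364 CPM. Usp15 had 42.6 CPM in 8CB embryo 5, against 14.1 to 24.3 CPM, and Usp22 had 227 CPM in 2CB embryo 3, against 43.2 to 109 CPM.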

How the results depend on the processing

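The 16 members called between the pools kept their direction in all alternatives run. Over other tools, scalings, filters, thinning and the block, 9 of them kept the call wherever they were tested, and Usp7, Usp9x, Usp10, Usp14, Usp43, Usp45 and Usp47 lost it in at least 1; over the fits without 1 embryo, 11 kept it in all 24. Leaving out 1 embryo at a time gave 14 to 18 called members between the pools (53% to 55.1% of all genes), 11 to 17 among the stages (44.6% to 48%), 7 to 13 for 2CB against 1C (36.8% to 42.3%), 6 to 9 for 4CB against 8CB (36.1% to 40.3%) and 0 to 0 within each pool. Thinning every embryo to the lowest total left 10 members to test, of which 5 were called between the pools (59.3% of all genes), 5 among the stages (52.7%), 2 for 2CB against 1C (44.2%) and 3 for 4CB against 8CB (47.2%). With the genes kept at full depth, an alternative chosen after seeing the data, 12 were called between the pools (44.2%) and 6 among the stages (34%). The same fit called 6 for 2CB against 1C (28%) and 5 for 4CB against 8CB (29.8%). At an adjusted p below 0.05, 13 were called between the pools (48.6%) and 9 among the stages (39.8%). DESeq2 called 1 in 8CB against 1C. The sign turned in members that were not called: Usp34 gave 0.0062 in DESeq2 and 0.012 with its size factors, and in the thinned fit Usp46 gave -0.0793 and Usp2 gave 0.132. Without 1 embryo, log2 fold changes ran from -0.163 to 0.0016 in Usp48, from -0.0221 to 0.248 in Usp46, from -0.0972 to 0.353 in Usp31 and from -0.187 to 0.0033 in Usp34. Embryo numbers do not pair the embryos (mean correlation of same-numbered embryos of -0.016 over 36 pairs); with a replicate block, 15 members were called between the pools (53.6% of all genes), 11 among the stages (43.8%), 9 for 2CB against 1C (39.6%) and 8 for 4CB against 8CB (37.8%). The lowest member tested at this depth was Usp31, at a mean of 23.7 CPM, and the highest not tested was Usp42, at 22.5 CPM.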
